A study of Mus musculus with 8 samples.

Results

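Fibroblastic reticular cells (FRC) of a mouse line held in tumor-conditioned medium (TCM) were compared across the transcriptome with FRC held in medium that FRC themselves had conditioned (CCM). The contrast was thus between what B16.F10 melanoma cells and what FRC leave in a medium. It used 4 of the 8 RNA-seq libraries of the experiment, 2 for each medium. It covered 12137 of the 55367 genes in the count table, those with at least 10 counts in at least 3 of the 8 libraries. The 4 other libraries, 2 from cells given water as the vehicle and 2 from cells given lactic acid (LA) at 15 mmol/L, shared in the estimate of the spread and were used for the contrast of TCM with LA. All cells were of 1 line, raised from lymph nodes of p53ER/ER C57BL/6 mice. In these mice p53 is a fusion with a hormone-binding domain of the estrogen receptor. Both conditioned media were made in RPMI without supplements and given undiluted with 2% FBS for 96 hours, with fresh medium at 48 hours, and vehicle and LA were given in RPMI with the same serum. The line is a single cell source kept in culture without lymphocytes. The libraries of a medium are described as biological replicates. Whether these were separate cultures or media is not given in the sources used here, and all came from the 1 line, so P values measure the spread between these libraries only.

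FRC are the mesenchymal cells that build the reticular network of the lymph node. They lay down and wrap the collagen fibers that conduct lymph-borne molecules. They secrete the chemokines and survival factors that place and sustain lymphocytes, and they contract or relax through podoplanin as the node swells. Nodes that drain a tumor receive its secreted products before the tumor cells themselves arrive, and FRC stand among the first cells in their path.

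The libraries held 8232889 to 14107964 counts, and levels below are CPM, the share of a gene's counts in the TMM-scaled library total. The exceptions are the summed marker levels of this paragraph and the floors at 3 counts, which use totals without TMM factors. The 2 markers used to describe the line were present. Podoplanin (Pdpn) stood at 137 ± 4.44 CPM with CCM and 186 ± 1.301 CPM with TCM (SD, n = 2). Vcam1 had 2177 and 1817 counts with CCM and 2039 and 1819 with TCM. Other FRC markers ranged from abundant to absent. Pdgfrb had 4976 and 4111 counts with CCM and 2538 and 2912 with TCM. Ltbr had 1571 and 1239 counts with CCM and 1406 and 1217 with TCM. Some others were absent or scarce. The chemokine gene Ccl19 had 1 and 0 counts with CCM and 0 and 0 with TCM, and Ccl21a had 0 in each. Icam1 had 8 and 3 counts with CCM and 3 and 1 with TCM, and Thy1 7 and 2 against 8 and 16. Ptprc, which encodes CD45, had 0 counts in the CCM and TCM libraries, which allows at most 3 counts in a library or 0.307 CPM in the shallowest of the 4, and summed levels of 20 hematopoietic markers were 16 to 27.2 CPM. Among 16 melanocyte lineage markers 11 stayed at or under 3 counts in each of the 4 libraries, and their summed level was 3.67 to 5.21 CPM with CCM and 3.89 to 4.05 CPM with TCM. Pecam1, which encodes CD31, had 4 to 5 counts in a library. Summed levels of 16 endothelial markers were 78 and 79.6 CPM with CCM and 61.9 and 59.8 CPM with TCM, and those of 12 epithelial markers 4.42 and 5.95 CPM against 1.78 and 1.95 CPM. Their part in the results was not tested. The 2 TCM libraries stood further apart than any other pair, with a chi-square per gene of 20.1 against 3.28 for the CCM pair, 4.83 for vehicle and 7.33 for LA. TCM library 1 was higher than TCM library 2 in short genes, by a median log2 ratio of 0.229 in the tertile of shortest genes (median exonic length 2239 bases). It was lower in long genes, with a ratio of -0.188 in the tertile of longest genes (8297 bases). The same medians between the CCM libraries were -0.0601 and 0.0587. The lists of genes that this gap touches are given with and without a TCM library.

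With edgeR's quasi-likelihood test, Benjamini-Hochberg adjustment and a log2 fold change (FC) beyond 0.39, 2314 genes were called, which was 19.1% of those tested. TCM raised 1072 genes (8.83%) and lowered 1242 (10.2%). Both TCM libraries lay above both CCM libraries in 27.8% of all tested genes and below both in 30.5%. Such a gap is thus common, and genes picked by a small adjusted P are apt to show it. The changes were of moderate size for most genes and larger on the falling side. The quartiles of log2 FC were -0.248 and 0.219 around a median of 0.000322. The 5th and the 95th percentiles were -1.04 and 0.716. Beyond a doubling or halving, 250 called genes were higher and 510 lower, and beyond a 4-fold change 47 were higher and 100 lower. The direction varied with the level of the gene. In the tertile of genes with the lowest levels 262 were called higher and 510 lower, and in that with the highest levels 480 higher and 279 lower. In terms of RNA, genes called higher held 14.7% of the counts of both CCM libraries and 22.1% and 22.7% of the TCM libraries, and genes called lower went from 9.14% and 8.87% to 4.81% and 5.08%. Since the counts of a library sum to a fixed share, these are changes of proportion, and TMM scaling sets where 0 lies. With scaling by total counts alone the median log2 FC of all genes was -0.14, and 651 genes were called higher and 2041 lower.

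The genes of smallest adjusted P that rose beyond 2-fold encoded membrane proteins, metabolic enzymes and secreted factors. Npr3, the clearance receptor that removes natriuretic peptides, stood at 349 and 361 CPM with CCM and 1131 and 1312 CPM with TCM (log2 FC 1.78 with an SE of 0.11, adjusted P = 1.07e-05). Slc1a6, a glutamate transporter best known from Purkinje cells, stood at 53.2 and 55.2 CPM with CCM and 188 and 176 CPM with TCM (log2 FC 1.75 with an SE of 0.11, adjusted P = 1.07e-05). Swap70, an actin-binding regulator of Rac signaling, stood at 62.7 and 63.95 CPM with CCM and 174 and 186 CPM with TCM (log2 FC 1.51 with an SE of 0.1, adjusted P = 1.08e-05). In each of the 3 the TCM libraries lay above both CCM libraries by far more than either pair spread. Gdf6, a BMP family ligand, rose from a low level, at 13.4 and 12.1 CPM with CCM and 46.4 and 44.2 CPM with TCM (log2 FC 1.82 with an SE of 0.12, adjusted P = 1.16e-05). Inhbb, which encodes the beta B subunit of activins, stood at 13.4 and 14.5 CPM with CCM and 45.8 and 45.95 CPM with TCM (log2 FC 1.72 with an SE of 0.14, adjusted P = 2.29e-05). Htra1, a secreted serine protease that cleaves matrix proteins (log2 FC 1.30, adjusted P = 1.74e-05), the secreted protease Prss23 (log2 FC 1.37, adjusted P = 2.08e-05), Lbh, a transcriptional cofactor in limb and heart development (log2 FC 1.495, adjusted P = 1.74e-05), Grb14, an adaptor that restrains insulin receptor signaling (log2 FC 1.26, adjusted P = 2.29e-05), and the matrix protein Abi3bp (log2 FC 1.87, adjusted P = 2.29e-05) completed this group with the kinase Pdk1 and the phosphofructokinase Pfkl, which are described with glycolysis. All 12 were called in every alternative fit that tested them. Larger changes, on a less even base, were those of Lcn2, the iron-siderophore carrier lipocalin 2, at 0.759 and 0.574 CPM with CCM and 5.58 and 4.69 CPM with TCM (log2 FC 2.92 with an SE of 0.35, adjusted P = 0.000194). Lmcd1, a LIM-domain transcriptional regulator, stood at 14.8 and 12.4 CPM with CCM and 100 and 106 CPM with TCM (log2 FC 2.91 with an SE of 0.28, adjusted P = 4.98e-05). Neb, which encodes the giant thin-filament protein nebulin, stood at 5.397 and 3.35 CPM with CCM and 22.3 and 43.4 CPM with TCM (log2 FC 2.89 with an SE of 0.33, adjusted P = 0.000153). These 3 genes were low with CCM in both libraries and at several times that level in both TCM libraries.

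On the falling side they were motor and spindle proteins, treated with cell division, and genes of varied roles. Lrrc17, a secreted leucine-rich repeat protein that restrains osteoclast formation, stood at 21 and 18.3 CPM with CCM and 1.37 and 1.86 CPM with TCM (log2 FC -3.60 with an SE of 0.23, adjusted P = 1.07e-05). Camsap3, a binder of microtubule minus ends, stood at 8.43 and 8.89 CPM with CCM and 0.421 and 0.546 CPM with TCM (log2 FC -4.13 with an SE of 0.29, adjusted P = 1.34e-05). Hey1, a transcriptional repressor that Notch signaling induces, stood at 30.9 and 30.3 CPM with CCM and 3.27 and 2.07 CPM with TCM (log2 FC -3.51 with an SE of 0.32, adjusted P = 3.77e-05). Both TCM values lay below both CCM values in all 3 genes. Angpt1, the ligand of the endothelial receptor Tie2 that perivascular cells secrete, stood at 6.58 and 8.32 CPM with CCM and 0.527 and 0.655 CPM with TCM (log2 FC -3.63 with an SE of 0.32, adjusted P = 3.49e-05). Pi16, a marker of fibroblasts of the adventitia, stood at 8.94 and 7.93 CPM with CCM and 0.843 and 0.546 CPM with TCM (log2 FC -3.58 with an SE of 0.30, adjusted P = 2.61e-05). Gucy1a1, a subunit of the nitric oxide receptor guanylate cyclase (log2 FC -3.43, adjusted P = 0.000262), Samd5 (log2 FC -3.30, adjusted P = 0.000183), Chst2, a sulfotransferase that modifies sugar chains (log2 FC -1.81, adjusted P = 1.09e-05), Abat, which breaks down GABA (log2 FC -1.996, adjusted P = 1.49e-05), Fmo1, a flavin-containing monooxygenase (log2 FC -1.74, adjusted P = 1.74e-05), and Aoc3, an amine oxidase known as VAP-1 (log2 FC -1.98, adjusted P = 1.84e-05), fell as well. At the lower end, 2 genes with at least 30 counts in both CCM libraries had at most 3 counts in both TCM libraries. The lipid transporter Abca8a had 97 and 36 counts with CCM and 2 and 3 with TCM (CCM over TCM ratio of counts scaled by depth 22.2, 95% exact interval 9.29 to 69.6, adjusted P = 0.000678). Glp1r, the receptor of glucagon-like peptide 1, had 46 and 45 counts with CCM and 1 and 0 with TCM (CCM over TCM ratio of counts scaled by depth 76, 95% exact interval 13.3 to 3040, adjusted P = 7.55e-05). No gene met the same rule in the other direction.

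**Figure D1:**
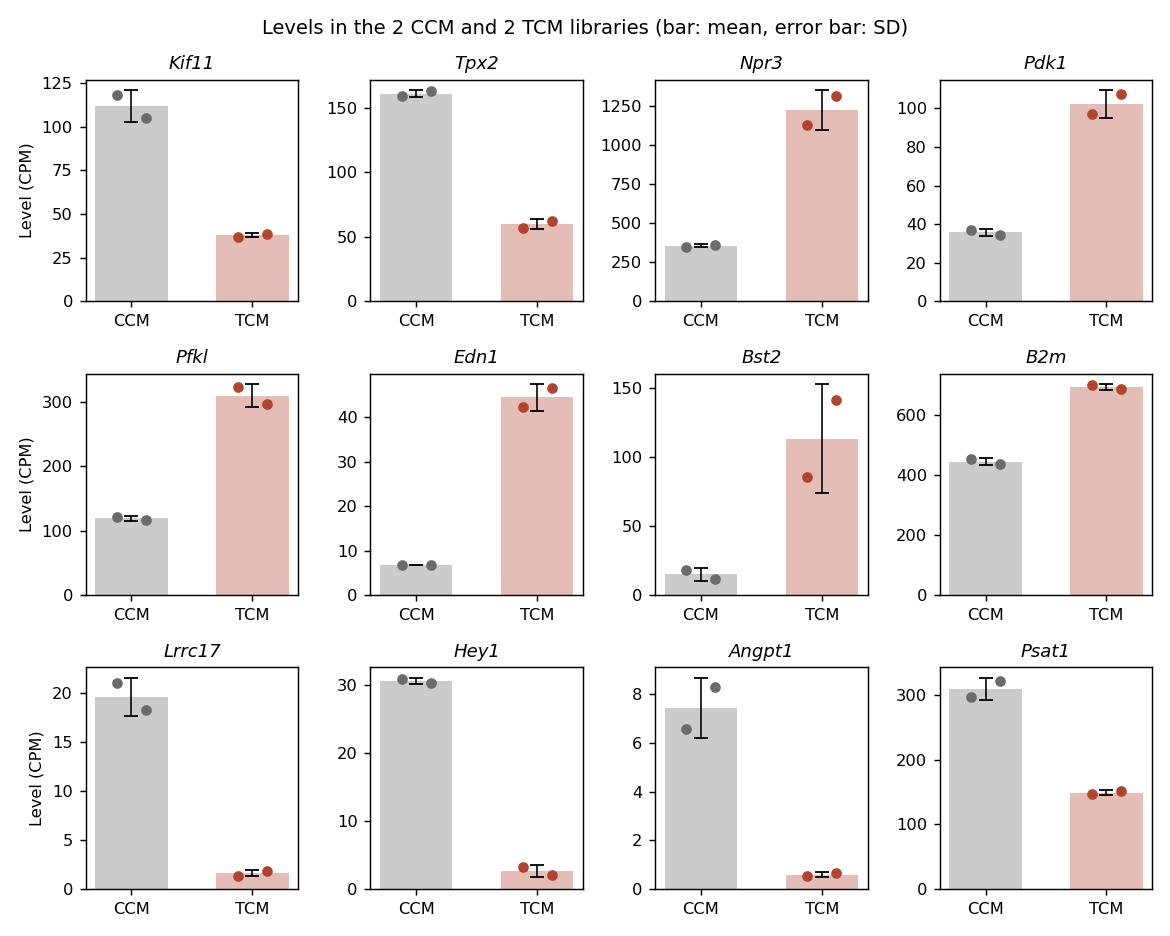
Levels of 12 genes in CPM on linear axes from 0, with 1 point per library, bars at the mean of 2 libraries and error bars for the SD. In each panel both TCM points lie on 1 side of both CCM points, as for Npr3 at 349 and 361 CPM with CCM against 1131 and 1312 CPM with TCM.

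To read the changes by function, 53 lists of genes were used, which held 1507 tested genes and 557 of the 2314 calls (24.1%). Their members' counts are to be read against the 8.83% and 10.2% of all tested genes that were called higher and lower, and list medians against a median near 0. Counts from a fit with a library left out are to be read against all calls of that fit. Those totals moved as well and are given with the alternatives below. A list count that moves with the total says little about the list itself. The other 1757 calls lay outside the lists.

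**Figure D2:**
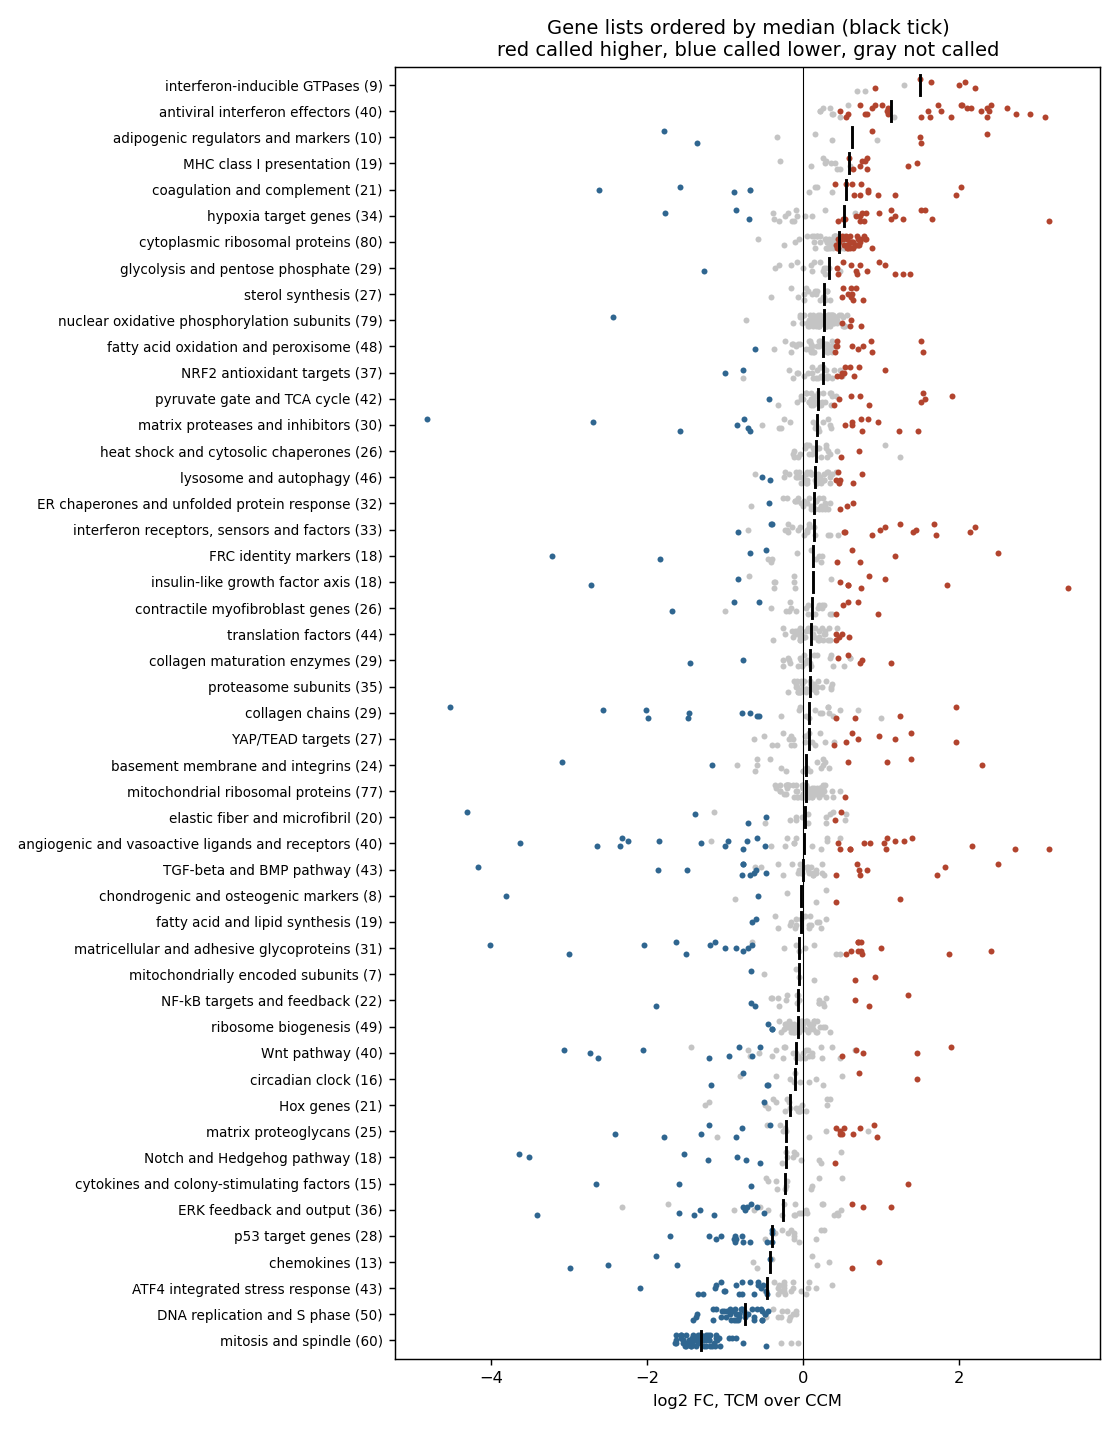
Each row is a gene list with the number of its tested genes in parentheses, each point a gene at its log2 FC of TCM over CCM, and the black tick the list median. Red points were called higher, blue lower and gray were not called. Mitosis and spindle genes sit lowest with a median of -1.31, and interferon-inducible GTPases and antiviral effectors highest with 1.5 and 1.13.

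Genes of cell division fell. Transcripts of mitotic kinases, motors and checkpoint proteins peak in G2 and M phase, and those of DNA synthesis around S phase. Of 60 mitosis and spindle genes 57 were called lower and 0 higher, with a median log2 FC of -1.31 and all 60 values negative. The 3 that were not called were Pttg1, Bub3 and Smc4. Of 50 genes of DNA replication and S phase 39 were called lower and 0 higher, with a median of -0.75. Kif11, the motor that pushes spindle poles apart, stood at 118 and 105 CPM with CCM and 37.1 and 38.6 CPM with TCM (log2 FC -1.56 with an SE of 0.10, adjusted P = 1.07e-05). Kif20a, a motor of the central spindle needed for cytokinesis, stood at 153 and 142 CPM with CCM and 46.8 and 48.5 CPM with TCM (log2 FC -1.63 with an SE of 0.11, adjusted P = 1.07e-05). Tpx2, which activates Aurora A kinase on the spindle, stood at 159 and 163 CPM with CCM and 57.1 and 62.6 CPM with TCM (log2 FC -1.43 with an SE of 0.10, adjusted P = 1.74e-05). In all 3 the pairs of libraries lay close together and far apart from each other. The related motor Kif20b (log2 FC -1.63, adjusted P = 1.08e-05), the kinetochore motor Cenpe (log2 FC -1.51, adjusted P = 1.74e-05) and the cytokinesis regulator Racgap1 (log2 FC -1.24, adjusted P = 1.74e-05) moved by like amounts. Genes of S phase had the smaller median. Cyclin A2 (Ccna2) stood at 149 and 137 CPM with CCM and 53.6 and 53.8 CPM with TCM (log2 FC -1.41 with an SE of 0.11, adjusted P = 1.9e-05). Thymidine kinase Tk1 fell by 1.36 on the log2 scale (adjusted P = 0.000115). The replication genes Mcm5, a subunit of the helicase (log2 FC -1.005, adjusted P = 4.77e-05), Rrm2, a subunit of ribonucleotide reductase (log2 FC -1.05, adjusted P = 5.84e-05), and Dbf4, the activator of Cdc7 kinase (log2 FC -1.15, adjusted P = 0.000104), also fell. The count of mitosis calls stayed between 55 and 58 in all alternative fits. The comparison of LA with vehicle shares no library with that of TCM and CCM. There the same list held 35 genes called higher (background 1.31%) and 0 lower (background 1.24%), with a median of 0.57. The difference between the TCM and the LA effect was called for 58 of the 60 mitosis genes and 40 of the 50 S-phase genes, against 10.4% of all tested genes. For Kif11 that difference was -2.18, adjusted P = 3.91e-05, on the log2 scale. The 2 effects have different reference media, CCM and RPMI with water. In bulk RNA a smaller share of dividing cells and less of these transcripts in each cell cannot be told apart. By Ki67 staining, a protein measure, the study reports no effect of either TCM or LA on FRC proliferation.

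Promoters of genes expressed late in the cell cycle commonly hold a cell cycle homology region (CHR), TTTGAA, next to CCAAT boxes. In the 250 bases before the annotated start, searched on both strands, TTTGAA was present in 17 of 51 mitosis genes with a promoter sequence (33.3%) and 7 of 40 S-phase genes (17.5%), and in 12.7% of the 9385 tested genes that have one. CCAAT was present in 34 of 51 (66.7%), 23 of 40 (57.5%) and 41.3%. The promoter of Kif11 is shown as an example chosen among the 17 mitosis genes with a CHR. Its adjusted P was among the smallest of the list. Capitals mark the CHR, which in Kif11 reads on the opposite strand. The window was read from RefSeq on GRCm38.p6 (chr19:37376322-37376381, plus strand), and the last base of the CHR lies 14 bases before the start.
Kif11: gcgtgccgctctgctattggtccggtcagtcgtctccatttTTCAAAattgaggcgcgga
These matches describe letters in a window and not binding.

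Genes of the p53 response, which arrest the cycle or sense damage, were lower or not called. Of 28 tested, 0 were called higher and 15 lower, with a median of -0.4. Gtse1, a mitotic inhibitor of p53 that is itself cell cycle regulated (log2 FC -1.71, adjusted P = 3.49e-05), the proapoptotic Pmaip1, known as Noxa (log2 FC -1.20, adjusted P = 0.000361), Sesn2, a stress-induced inhibitor of mTORC1 (log2 FC -1.12, adjusted P = 0.000313), Trp53inp1 (log2 FC -0.86, adjusted P = 0.000226) and Ddit4 (log2 FC -0.86, adjusted P = 0.000176) were the 5 of smallest adjusted P. Sesn2 and Ddit4 are also targets of ATF4, so that the lists are not independent. The p53 of this line is the estrogen receptor fusion named above, and whether it was active in any of the media was not tested.

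Interferon-stimulated genes were higher with TCM. Type I interferon signals from its receptor to a common promoter element and induces proteins that block viral entry, translation and budding, along with antigen presentation. Of 40 antiviral effectors 31 were called higher and 0 lower, with a median of 1.13. Bst2, the tetherin that holds budding viruses at the cell surface, stood at 18.5 and 11.5 CPM with CCM and 85.4 and 142 CPM with TCM (log2 FC 2.91 with an SE of 0.26, adjusted P = 3.49e-05). Ifi44 stood at 5.06 and 2.103 CPM with CCM and 22.03 and 40.8 CPM with TCM (log2 FC 3.10 with an SE of 0.38, adjusted P = 0.000252). Xaf1, a proapoptotic interferon-induced protein, stood at 29.8 and 18.6 CPM with CCM and 78.9 and 119 CPM with TCM (log2 FC 2.02 with an SE of 0.23, adjusted P = 0.000153). Both TCM libraries exceeded both CCM libraries in each of the 3. Ifitm3, which blocks fusion of viruses in endosomes, changed by less from a higher base, at 185 and 177 CPM with CCM and 348 and 421 CPM with TCM (log2 FC 1.08 with an SE of 0.11, adjusted P = 5.78e-05). Rtp4, an interferon-induced chaperone of receptors, rose with them (log2 FC 2.73, adjusted P = 0.000332). Among 33 receptors, sensors and factors 12 were called higher and 3 lower. The higher members included factors that carry the signal to the nucleus. Irf9 stood at 24.4 and 20.8 CPM with CCM and 55.4 and 68.5 CPM with TCM (log2 FC 1.45 with an SE of 0.15, adjusted P = 0.000102), and Stat2 (log2 FC 1.71, adjusted P = 0.000137) rose with it. So did the RNA sensors Dhx58 (log2 FC 2.21, adjusted P = 0.000217) and Ifih1 (log2 FC 1.41, adjusted P = 0.00042). The lower ones were the kinase Jak2, the gamma receptor chain Ifngr1 and the DNA sensor Cgas, whose log2 FC ran from -0.40 to -0.83 and whose calls were each lost in some fit with a CCM library left out.

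Of 9 interferon-inducible GTPases, which attack the vacuoles of intracellular pathogens, 6 were called higher and 0 lower, with a median of 1.5. Without CCM library 1 the count was 9 with a median of 2.35, without CCM library 2 it was 5 with 1.12, and without TCM library 2 it was 4 with 1.4. Irgm2 stood at 11.98 and 5.83 CPM with CCM and 28.6 and 43.8 CPM with TCM (log2 FC 2.003 with an SE of 0.28, adjusted P = 0.000487). Igtp (log2 FC 1.497, adjusted P = 0.00277), Tgtp2 (log2 FC 1.65, adjusted P = 0.000725) and Irgm1 (log2 FC 0.93, adjusted P = 0.000416) rose too. These genes have close paralogs among which reads could be split, which was not tested. The MHC class I pathway followed with smaller changes, 9 of 19 members called higher and 0 lower. B2m, the invariant light chain, stood at 454 and 436 CPM with CCM and 700.1 and 686 CPM with TCM (log2 FC 0.64 with an SE of 0.093, adjusted P = 0.000698). The immunoproteasome subunit Psmb8 stood at 4.05 and 3.15 CPM with CCM and 10.2 and 8.29 CPM with TCM (log2 FC 1.35 with an SE of 0.21, adjusted P = 0.00115). The proteasome activator subunit Psme1 stood at 59.96 and 63.4 CPM with CCM and 120.5 and 92.99 CPM with TCM (log2 FC 0.79 with an SE of 0.12, adjusted P = 0.00103). The groups did not overlap in these 3 genes either, with TCM above, as in 27.8% of all tested genes. The peptide transporter subunit Tap2 (log2 FC 0.73, adjusted P = 0.00119) and the heavy chain H2-D1 (log2 FC 0.76, adjusted P = 0.00171) rose too. The antiviral genes differed between libraries of 1 medium. CCM library 1 exceeded CCM library 2 by a median log2 ratio of 0.679 for the 40 antiviral genes and 1.28 for the 9 GTPases, and TCM library 1 was above TCM library 2 in only 4 and 0 of them, respectively. Without CCM library 1 the median of the antiviral list was 1.91, against 1.02 without CCM library 2, with 29 and 23 members called higher. LA itself raised 6 of the 40 (median 0.88), against 1.31% of all tested genes. A difference between the TCM and the LA effect was called for 7 of the 40, against 10.4% of all tested genes.

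The interferon-stimulated response element was searched as GAAANNGAAA on both strands of the same 250 bases. It was present in 3.07% of the promoters of tested genes, in 9 of 31 of the antiviral list (29.0%), in 3 of 16 of the MHC class I list (18.8%) and in 7 of 7 of the GTPases with a promoter sequence. Promoters of the called genes with an element and the smallest adjusted P are shown on the strand of the gene, with the element, and any that overlaps it, in capitals.
Bst2: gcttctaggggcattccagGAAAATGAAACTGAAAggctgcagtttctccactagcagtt
Isg15: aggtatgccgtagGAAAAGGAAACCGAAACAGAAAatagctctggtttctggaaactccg
Irgm1: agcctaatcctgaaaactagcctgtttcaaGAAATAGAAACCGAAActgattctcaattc
Irgm2: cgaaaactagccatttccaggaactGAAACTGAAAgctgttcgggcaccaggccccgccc
Tgtp2: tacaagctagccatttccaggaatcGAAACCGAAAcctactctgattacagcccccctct
Igtp: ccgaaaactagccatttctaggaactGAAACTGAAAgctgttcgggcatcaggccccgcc
Gbp3: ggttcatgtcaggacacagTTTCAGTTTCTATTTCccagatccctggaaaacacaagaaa
B2m: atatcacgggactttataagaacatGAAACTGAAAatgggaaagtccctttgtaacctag
From RefSeq on GRCm38.p6, they lie at chr8:71537562-71537621, minus strand, chr4:156200850-156200909, minus strand, chr11:48871421-48871480, minus strand, chr11:58214888-58214947, plus strand, chr11:49064248-49064307, minus strand, chr11:58199496-58199555, plus strand, chr3:142559980-142560039, plus strand and chr2:122147523-122147582, plus strand. In Gbp3 the element reads on the opposite strand, and the call of Gbp3 was lost without TCM library 2 (adjusted P = 0.051, log2 FC 2.07), with a log2 FC of 3.83 without CCM library 1. The windows of Irgm2 and Igtp, neighbors on chromosome 11, resemble each other closely, so the GTPase promoters are not independent examples.

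Many genes known as targets of hypoxia-inducible factor rose, and so did some of the genes of glycolysis. Of 34 hypoxia targets 18 were called higher and 3 lower, with a median of 0.52, and of 29 genes of glycolysis and the pentose phosphate pathway 13 were called higher and 1 lower, with a median of 0.33. Without CCM library 1 the glycolysis count was 8 higher and 0 lower. Pfkl, the liver isoform of the committing enzyme of glycolysis, stood at 122 and 116 CPM with CCM and 322 and 297 CPM with TCM (log2 FC 1.38 with an SE of 0.10, adjusted P = 1.74e-05). Aldoa, which splits its product, stood at 569 and 576 CPM with CCM and 1464 and 1333 CPM with TCM (log2 FC 1.29 with an SE of 0.10, adjusted P = 2.36e-05). Pgk1, the first ATP-forming step, stood at 181 and 213 CPM with CCM and 479 and 416 CPM with TCM (log2 FC 1.18 with an SE of 0.12, adjusted P = 6.76e-05). These enzymes moved in both TCM libraries in the same direction. Lactate dehydrogenase A (Ldha) stood at 528 and 556 CPM with CCM and 1139 and 990.4 CPM with TCM (log2 FC 0.97 with an SE of 0.11, adjusted P = 0.000119). The isomerase Gpi1 rose with it (log2 FC 0.82, adjusted P = 0.00015). Gapdh, often used as a reference transcript, had a log2 FC of 0.28 and was not called (adjusted P = 0.0974). Pdk1, the kinase that shuts the pyruvate dehydrogenase gate to mitochondria, stood at 37.02 and 34.5 CPM with CCM and 97.3 and 107 CPM with TCM (log2 FC 1.51 with an SE of 0.10, adjusted P = 1.34e-05). Bnip3, a mitophagy receptor, rose too (log2 FC 1.66, adjusted P = 5.84e-05), and so did Lox, which cross-links collagen (log2 FC 1.13, adjusted P = 6.33e-05). Not every target moved this way. Ddit4 and Ndrg1 (log2 FC -0.69, adjusted P = 0.00116) were lower, and Vegfa did not pass the test (log2 FC 0.11, adjusted P = 0.623). Epas1, which encodes HIF-2alpha, was called lower (log2 FC -1.77, adjusted P = 0.0176), a call lost without TCM library 1 (adjusted P = 0.234, log2 FC -1.75) and without TCM library 2 (adjusted P = 0.201, log2 FC -1.80) and without CCM library 1 (adjusted P = 0.124, log2 FC -1.43). With LA, 0 of the 34 hypoxia genes were called in either direction. That is near the background of LA, which was 1.31% of all tested genes called higher and 1.24% lower. The difference between the effects was called for 16 of the 34 and for 10 of the glycolysis genes, against 10.4% of all tested genes. For Pdk1 the log2 difference was 1.45, adjusted P = 0.00014. The core of the hypoxia response element, ACGTG on either strand, lay in the searched 250 bases of 16 of 26 hypoxia targets (61.5%) and 10 of 29 glycolysis genes (34.5%), against 25.5% of all.

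The lactate transporters and mitochondrial fuel genes gave a mixed picture. Slc16a3, the exporter MCT4, stood at 1.48 ± 0.0595 CPM with CCM and 4.42 ± 1.47 CPM with TCM (SD, n = 2) with a log2 FC of 1.57 (adjusted P = 0.00901), a call lost without CCM library 1 (adjusted P = 0.0595, log2 FC 1.61) and without CCM library 2 (adjusted P = 0.0586, log2 FC 1.53). Slc16a1, or MCT1, had a log2 FC of 0.28 (adjusted P = 0.0873) and was not called. Of 42 genes of the pyruvate gate and the TCA cycle 9 were called higher and 1 lower. Pdk4, another pyruvate dehydrogenase kinase, stood at 16.3 and 19.8 CPM with CCM and 48.9 and 55.6 CPM with TCM (log2 FC 1.54 with an SE of 0.14, adjusted P = 4.43e-05). Its opponent, the phosphatase Pdp1 (log2 FC 0.85, adjusted P = 0.00282), and the citrate carrier Slc25a1 (log2 FC 0.74, adjusted P = 0.000513) rose as well. Kinase and phosphatase of the same gate thus rose together. Of 48 genes of fatty acid oxidation and peroxisomes 11 were higher and 1 lower. The lipid chaperone Fabp4 stood at 35 and 34.6 CPM with CCM and 118 and 79.8 CPM with TCM (log2 FC 1.51 with an SE of 0.16, adjusted P = 0.000108). The nuclear receptor Pparg (log2 FC 0.89, adjusted P = 0.00366) and the sterol carrier Scp2 (log2 FC 0.71, adjusted P = 0.00348) rose, and the acyl-CoA synthetase Acsl3 fell (log2 FC -0.61, adjusted P = 0.00187). The pyruvate and oxidation counts were 7 and 7 without TCM library 1, 16 and 17 without TCM library 2, and 5 and 4 without either CCM library. In sterol synthesis 9 of 27 genes were higher and 0 lower, among them the thiolase Acat2 (log2 FC 0.77, adjusted P = 0.000353), Insig1, a sensor that restrains the pathway (log2 FC 0.62, adjusted P = 0.00144), and the enzymes Mvd (log2 FC 0.63, adjusted P = 0.00149) and Hsd17b7 (log2 FC 0.68, adjusted P = 0.00214). The sterol count was 4 without CCM library 1 and 6 without CCM library 2. In fatty acid synthesis 0 of 19 were higher and 2 lower, the regulator Srebf1 (log2 FC -0.60, adjusted P = 0.000801) and the desaturase Scd2 (log2 FC -0.65, adjusted P = 0.00186).

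Transcripts of the ATF4 response, through which cells short of amino acids or with stressed ER raise amino acid synthesis and import, were lower. Of 43 genes 0 were called higher and 20 lower, with a median of -0.46. Psat1, an enzyme of serine synthesis, stood at 297 and 321 CPM with CCM and 146 and 152 CPM with TCM (log2 FC -1.06 with an SE of 0.12, adjusted P = 0.000137). Nupr1, a stress-induced chromatin protein, stood at 38.03 and 39.9 CPM with CCM and 16.6 and 15.3 CPM with TCM (log2 FC -1.28 with an SE of 0.12, adjusted P = 4.88e-05). The transcription factor Atf5 stood at 481 and 462 CPM with CCM and 249 and 218 CPM with TCM (log2 FC -1.01 with an SE of 0.11, adjusted P = 0.000103). All TCM values of these genes lay below the CCM values. The neutral amino acid transporter Slc1a4 also fell (log2 FC -0.78, adjusted P = 0.000295), as did the cystine importer Slc7a11, a target of both ATF4 and NRF2 (log2 FC -0.999, adjusted P = 0.00203). The number of ATF4 genes called lower was 13 without CCM library 1 and 15 without CCM library 2, and 17 to 24 in the other alternatives. Genes of the ER chaperone list changed little, with 3 of 32 higher and 1 lower. Of 37 NRF2 targets, which detoxify and restore glutathione, 9 were higher and 2 lower, with 5 higher without TCM library 1, 16 without TCM library 2 and 4 without either CCM library. The higher ones included the peroxiredoxin Prdx6 (log2 FC 0.65, adjusted P = 0.00158), the esterase Esd (log2 FC 0.60, adjusted P = 0.00321) and the glutathione transferase Gstm1 (log2 FC 0.54, adjusted P = 0.00359).

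The ribosome and the respiratory chain gave values that depended on the library, and the 2 TCM libraries differed there. Of 80 cytoplasmic ribosomal protein genes 33 were called higher and 0 lower, with a median of 0.46, and TCM library 1 exceeded TCM library 2 in 79 of the 80 by a median log2 ratio of 0.521. Without TCM library 1 the list held 5 genes called higher and 1 lower with a median of 0.162, and without TCM library 2 it held 67 higher with a median of 0.697. The CCM libraries mattered as well, with 1 gene called higher without CCM library 1 and 8 without CCM library 2. Rpl28, a large-subunit protein, stood at 462 and 507 CPM with CCM and 877 and 714 CPM with TCM (log2 FC 0.71 with an SE of 0.13, adjusted P = 0.0023) and was called in each fit that tested it, although its locus overlaps that of Ube2s on the opposite strand. Ribosomal protein genes also have many processed pseudogenes, which can share reads. Nuclear subunits of oxidative phosphorylation behaved alike, with 4 of 79 higher and 1 lower, 0 higher and 3 lower without TCM library 1, and 49 higher without TCM library 2, at medians of 0.271, -0.00445 and 0.492. For mitochondrial ribosomal proteins the counts of higher genes were 1 of 77, 0 and 12, for proteasome subunits 0 of 35, 0 and 8, and for translation factors 5 of 44, 1 and 12. Without CCM library 1 the respiratory and translation counts were 0 and 1, and without CCM library 2 they were 1 and 1. Genes of these lists are short, with a median exonic length of 1805 bases for cytoplasmic ribosomal proteins and 1578 for respiratory subunits, and the part of length in the gap was not tested. Mitosis, hypoxia and ATF4 genes showed no such gap, with median log2 ratios between the TCM libraries of -0.0012, -0.0506 and -0.00987. Of 7 mitochondrially encoded subunits 2 were higher and 1 lower, and all 3 calls were lost when some library was left out, mt-Co1 for example without TCM library 1 (adjusted P = 0.0517, log2 FC 0.57) and without CCM library 2 (adjusted P = 0.129, log2 FC 0.49). Ribosome biogenesis genes showed 0 of 49 higher and 3 lower, with log2 FC of -0.39 to -0.45.

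**Figure D3:**
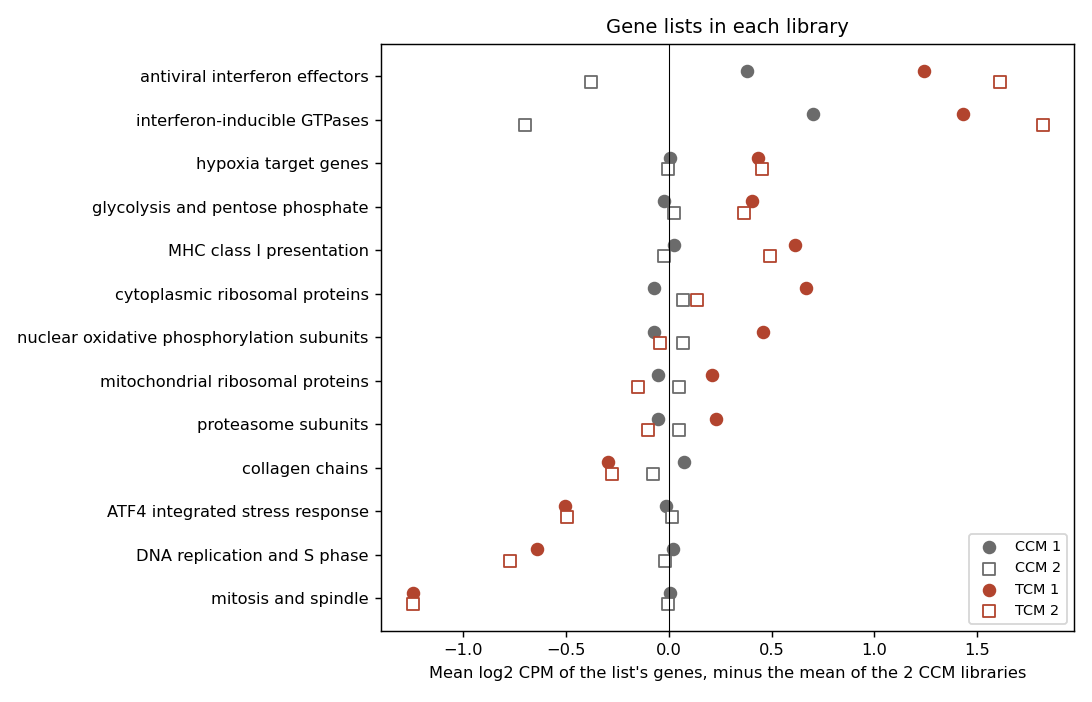
Mean log2 CPM of the genes of 13 lists in each library, less the mean of the CCM libraries, with gray symbols for CCM, red for TCM, filled circles for library 1 and open squares for library 2. The TCM symbols coincide for mitosis genes and lie apart for cytoplasmic ribosomal proteins and respiratory subunits, where library 1 was higher, and for antiviral genes the CCM symbols lie apart.

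The matrix, the product by which FRC shape the node, changed in both directions. Of 29 collagen chains 4 were called higher and 10 lower with a median of 0.0763, which became -0.0636 without TMM factors. Their mean log2 level went the other way from this median, at 6.61 and 6.46 (log2 CPM) with CCM and 6.24 and 6.26 with TCM, as the falls reached a log2 FC of -4.52 and the rises 1.96. The fibrillar chain Col3a1, the main collagen of reticular fibers, stood at 7259 and 6741 CPM with CCM and 4301 and 4443 CPM with TCM (log2 FC -0.68 with an SE of 0.11, adjusted P = 0.00133). Col6a2, of the beaded filaments around cells, stood at 1943 and 1690 CPM with CCM and 1002 and 1109 CPM with TCM (log2 FC -0.78 with an SE of 0.12, adjusted P = 0.00114). Col5a3, which takes part in fibril assembly, stood at 80.5 and 74.8 CPM with CCM and 26.4 and 29.5 CPM with TCM (log2 FC -1.48 with an SE of 0.11, adjusted P = 2.08e-05). Both TCM libraries lay below both CCM libraries in all 3. Col27a1 fell too (log2 FC -1.98, adjusted P = 0.00263). In the other direction Col20a1 rose (log2 FC 1.96, adjusted P = 0.000217). The calls of the 3 further higher chains, Col2a1, Col7a1 and Col11a1, were each lost without either CCM library.

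The enzymes that finish collagen moved upward in part, with 5 of 29 higher and 2 lower. The cross-linking oxidase Lox stood at 2051 and 2011 CPM with CCM and 4126 and 4772 CPM with TCM (log2 FC 1.13 with an SE of 0.11, adjusted P = 6.33e-05). The prolyl hydroxylase subunits P4ha1 (log2 FC 0.73, adjusted P = 0.000334) and P4ha2 (log2 FC 0.76, adjusted P = 0.000159) and the lysyl hydroxylase Plod3 (log2 FC 0.58, adjusted P = 0.000724) rose. The procollagen proteinase Bmp1 (log2 FC -0.77, adjusted P = 0.00019) and its enhancer Pcolce2 (log2 FC -1.45, adjusted P = 0.000324) fell. The other 22 of the 29 were not called. Lox, P4ha1 and P4ha2 are hypoxia targets as well. Of 25 proteoglycans 9 were higher and 7 lower, with 4 higher without CCM library 2. Ogn, a small leucine-rich proteoglycan also called mimecan, rose (log2 FC 0.64, adjusted P = 0.000899), and the hyaluronan receptor Cd44 fell (log2 FC -0.78, adjusted P = 0.00138). Dcn, Lum, Aspn and Vcan, among the best-known fibroblast proteoglycans, were called lower with log2 FC of -0.86, -1.78, -2.41 and -1.21. Each of these 4 calls was lost in some fit with a library left out. Dcn was not called without TCM library 2 (adjusted P = 0.0508, log2 FC -0.72) and Lum not without TCM library 2 (adjusted P = 0.0558, log2 FC -1.64). Vcan was not called without TCM library 1 (adjusted P = 0.0848, log2 FC -0.89), and the call of Aspn was lost without TCM library 1 (adjusted P = 0.143, log2 FC -2.42) and without TCM library 2 (adjusted P = 0.127, log2 FC -2.40).

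Of 31 adhesive glycoproteins 11 were higher and 12 lower, which became 7 and 7 without CCM library 1 and without TCM library 2, and 6 and 8 without CCM library 2. Npnt, nephronectin, a ligand of integrin alpha8 beta1, stood at 1.77 and 1.05 CPM with CCM and 5.69 and 9.71 CPM with TCM (log2 FC 2.42 with an SE of 0.45, adjusted P = 0.00339). The integrin chain Itga8 itself stood at 6.58 and 5.45 CPM with CCM and 0.527 and 0.873 CPM with TCM (log2 FC -3.09 with an SE of 0.48, adjusted P = 0.00103). Ligand and receptor thus moved in opposite directions. Abi3bp, Thbs1, a thrombospondin that can free latent TGF-beta (log2 FC 0.75, adjusted P = 0.00175), Tinagl1 (log2 FC 1.01, adjusted P = 0.000465) and Smoc1, an inhibitor of BMP signaling (log2 FC 0.71, adjusted P = 0.00385), rose. Mgp, an inhibitor of calcification (log2 FC -1.63, adjusted P = 0.000194), Matn2 (log2 FC -1.002, adjusted P = 0.000112), Ccn4, a Wnt-induced matricellular protein (log2 FC -1.13, adjusted P = 0.000412), and Thbs3 (log2 FC -0.77, adjusted P = 0.000698) fell. In the basement membrane list 4 of 24 were higher and 2 lower. The laminin chain Lama5 stood at 6.66 and 6.59 CPM with CCM and 26.03 and 39.1 CPM with TCM (log2 FC 2.29 with an SE of 0.25, adjusted P = 0.000125). Its receptor chain Itga3 stood at 8.096 and 11.3 CPM with CCM and 23.2 and 27.1 CPM with TCM (log2 FC 1.38 with an SE of 0.20, adjusted P = 0.00068). Unlike Npnt and Itga8, this ligand and receptor chain rose together. The collagen receptor chain Itga11 rose (log2 FC 1.07, adjusted P = 0.000747) and Itgb3 fell (log2 FC -1.16, adjusted P = 0.00251).

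Of 30 matrix proteases and inhibitors 9 were higher and 7 lower. Adamts1, a protease that cleaves aggrecan and versican, stood at 2355 and 2264 CPM with CCM and 6027 and 6855 CPM with TCM (log2 FC 1.48 with an SE of 0.15, adjusted P = 6.76e-05). The related Adamts5 (log2 FC 1.24, adjusted P = 3.6e-05) rose together with Reck, a membrane-bound inhibitor of metalloproteases (log2 FC 0.96, adjusted P = 0.000382). The tissue plasminogen activator Plat fell (log2 FC -0.68, adjusted P = 0.00173). Its inhibitor Serpine2 stood at 151 and 138 CPM with CCM and 49 and 47.7 CPM with TCM (log2 FC -1.58 with an SE of 0.13, adjusted P = 2.61e-05). The inhibitor Timp3 (log2 FC -0.76, adjusted P = 0.00112) and the membrane protease Mmp15 (log2 FC -2.69, adjusted P = 0.0003) fell too. In the list of elastic fibers 2 of 20 were higher and 4 lower, with the microfibril protein Mfap4 at 5.74 and 4.88 CPM with CCM and 1.897 and 2.18 CPM with TCM (log2 FC -1.38 with an SE of 0.28, adjusted P = 0.00532) among the latter. Contractile genes showed 5 of 26 higher and 3 lower, which became 1 and 1 without CCM library 1 and 2 and 2 without CCM library 2. The tropomyosin Tpm4 (log2 FC 0.58, adjusted P = 0.00243) rose. The smooth muscle actin gene Actg2 stood at 12.2 and 10.7 CPM with CCM and 4.43 and 2.73 CPM with TCM (log2 FC -1.68 with an SE of 0.32, adjusted P = 0.00384). The other 6 calls were lost in some fit with a library left out or without TMM factors.

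Among ligands of the TGF-beta family activin subunits rose and Tgfb3 fell. Of 43 genes of the TGF-beta and BMP pathways 8 were higher and 10 lower. Inhba, the beta A subunit of activins, stood at 164 and 179.5 CPM with CCM and 280.5 and 273 CPM with TCM (log2 FC 0.69 with an SE of 0.096, adjusted P = 0.000533), and its binding inhibitor Fstl3 rose with it and with Inhbb (log2 FC 0.72, adjusted P = 0.00169). Grem1, a BMP antagonist that marks a subset of FRC, stood at 4.98 and 4.01 CPM with CCM and 23.9 and 27.6 CPM with TCM (log2 FC 2.51 with an SE of 0.35, adjusted P = 0.000551) while the BMP ligand Gdf6 rose as described. Tgfb3 stood at 329.9 and 332 CPM with CCM and 116 and 120.1 CPM with TCM (log2 FC -1.49 with an SE of 0.17, adjusted P = 0.000133). The values of these ligands did not overlap between media. The receptor Tgfbr2 (log2 FC -0.77, adjusted P = 0.00173) and the corepressor Tgif1 (log2 FC -0.63, adjusted P = 0.00159) fell. A difference between the TCM and the LA effect was called for 16 of the 43, against 10.4% of all tested genes. For Gdf6, which LA lowered (log2 FC -0.94, adjusted P = 0.00937), the log2 difference was 2.76, adjusted P = 3.91e-05.

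Of 40 Wnt genes 5 were higher and 9 lower, and without CCM library 1 they were 3 and 7. Wnt2 stood at 5.903 and 7.07 CPM with CCM and 1.69 and 1.42 CPM with TCM (log2 FC -2.05 with an SE of 0.27, adjusted P = 0.000327). Wnt5a, a ligand of the noncanonical pathway, stood at 93.2 and 101 CPM with CCM and 45.3 and 55.99 CPM with TCM (log2 FC -0.94 with an SE of 0.13, adjusted P = 0.000533). The receptor Fzd4 stood at 186 and 175 CPM with CCM and 96.2 and 108 CPM with TCM (log2 FC -0.82 with an SE of 0.10, adjusted P = 0.000238). Axin2, the standard readout of canonical Wnt signaling, had 18 and 14 counts with CCM and 2 and 1 with TCM (CCM over TCM ratio of counts scaled by depth 8.91, 95% exact interval 2.79 to 45.5, adjusted P = 0.00412). The R-spondins, which amplify Wnt signals, went the other way. Rspo3 stood at 191 and 192 CPM with CCM and 316 and 298 CPM with TCM (log2 FC 0.68 with an SE of 0.1, adjusted P = 0.000711), and Rspo2 rose too (log2 FC 0.77, adjusted P = 0.00172), as did Wnt2b (log2 FC 1.90, adjusted P = 0.00248). Of 18 Notch and Hedgehog genes 1 was higher and 7 lower. Besides Hey1 these included its relative Hey2 (log2 FC -1.52, adjusted P = 0.000172). The receptor Notch1 stood at 103 and 82.6 CPM with CCM and 32.04 and 48.03 CPM with TCM (log2 FC -1.21 with an SE of 0.18, adjusted P = 0.000875). The Hedgehog coreceptor Gas1 fell (log2 FC -0.85, adjusted P = 0.000184), and Gli1, the standard Hedgehog readout, had 27 and 21 counts with CCM and 1 and 2 with TCM (CCM over TCM ratio of counts scaled by depth 13.4, 95% exact interval 4.31 to 67.1, adjusted P = 0.000581). Axin2, Hey1 and Gli1, readouts of these 3 pathways, were all lower with TCM.

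Of 27 genes known as YAP/TEAD targets 8 were higher and 0 lower. Crim1, a transmembrane regulator of BMP and VEGF, stood at 429 and 422 CPM with CCM and 985 and 1247 CPM with TCM (log2 FC 1.39 with an SE of 0.12, adjusted P = 3.28e-05). Amotl2, an angiomotin that feeds back on YAP (log2 FC 1.18, adjusted P = 5.5e-05), and Ankrd1 (log2 FC 0.98, adjusted P = 0.000295) rose too. The list median was only 0.0753, the counts of higher genes fell to 5 without either CCM library, and 3 members were called lower without TCM library 2 and without TMM factors. Outputs and feedback of the ERK pathway fell in part, with 3 of 36 higher and 11 lower. The count of lower genes was 4 without CCM library 1, 6 without CCM library 2, 7 without TCM library 1 and 8 without TCM library 2. Dusp6, the phosphatase that ERK induces to restrain itself, stood at 27.2 and 23.3 CPM with CCM and 9.06 and 10.3 CPM with TCM (log2 FC -1.39 with an SE of 0.15, adjusted P = 0.000104). Jun fell (log2 FC -0.67, adjusted P = 0.00309), and the EGF receptor ligand Areg had 17 and 11 counts with CCM and 1 and 1 with TCM (CCM over TCM ratio of counts scaled by depth 11.7, 95% exact interval 2.95 to 101, adjusted P = 0.00467). Fosl2, also an AP-1 member, rose (log2 FC 1.13, adjusted P = 0.000269). Dusp6 and Fosl2, both induced by ERK in other cells, moved apart. NF-kB targets showed 3 of 22 higher and 3 lower, with Tnfaip2 higher (log2 FC 0.67, adjusted P = 0.000481).

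Secreted signals to immune cells changed in both directions. Of 13 chemokine genes, atypical receptors included, 2 were higher and 5 lower, and the lower ones numbered 2 to 4 when a library was left out. Cxcl12, which holds lymphocytes and stem cells through CXCR4, stood at 8717 and 8822 CPM with CCM and 13420 and 13830 CPM with TCM (log2 FC 0.64 with an SE of 0.11, adjusted P = 0.0019). Its scavenger receptor Ackr3 stood at 21.9 and 19.02 CPM with CCM and 1.897 and 3.27 CPM with TCM (log2 FC -2.99 with an SE of 0.22, adjusted P = 1.89e-05). The ligand thus rose as the receptor that removes it fell. Cxcl15 fell as well (log2 FC -1.61, adjusted P = 0.00146). Among 15 cytokines 1 was higher and 3 lower. Csf1, the growth factor of macrophages, stood at 675 and 657 CPM with CCM and 1582 and 1825 CPM with TCM (log2 FC 1.35 with an SE of 0.15, adjusted P = 0.000113). Il1rn, the antagonist of the interleukin-1 receptor, fell (log2 FC -0.67, adjusted P = 0.00138). LA raised Il1rn (log2 FC 0.99, adjusted P = 0.00112), and the log2 difference of the effects was -1.66, adjusted P = 8.01e-05. Il7, the survival factor of naive T cells for which FRC are known, was not called (log2 FC 0.11, adjusted P = 0.861). It had only 15 and 16 counts with CCM and 14 and 14 with TCM, which limits the test. With TCM the study reports a lower Il7 transcript by PCR and less IL7 protein by ELISA.

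Ligands and receptors that act on vessels changed in both directions, with 15 of 40 higher and 13 lower. Edn1, the vasoconstrictor endothelin 1, stood at 6.75 and 6.69 CPM with CCM and 42.4 and 46.6 CPM with TCM (log2 FC 2.72 with an SE of 0.26, adjusted P = 4.77e-05). Sema3a, a guidance cue that repels endothelial cells and axons, stood at 101 and 96.1 CPM with CCM and 209.5 and 239.6 CPM with TCM (log2 FC 1.19 with an SE of 0.11, adjusted P = 4.59e-05). Vegfd, a lymphangiogenic ligand, stood at 485 and 479.8 CPM with CCM and 1028 and 1002 CPM with TCM (log2 FC 1.07 with an SE of 0.11, adjusted P = 6.29e-05). In each of them the media did not overlap. The neurotrophin Bdnf rose (log2 FC 0.86, adjusted P = 0.000172). On the lower side, next to Angpt1, stood its relative Angpt2 (log2 FC -0.96, adjusted P = 0.000102). Calcrl, the receptor of adrenomedullin and CGRP, stood at 63.7 and 58.98 CPM with CCM and 15.6 and 18.6 CPM with TCM (log2 FC -1.84 with an SE of 0.16, adjusted P = 3.62e-05). The growth factor Pdgfc (log2 FC -0.99, adjusted P = 0.00022) and the neuropeptide neurotensin Nts (log2 FC -2.33, adjusted P = 2.08e-05) fell too. A difference between the effects of TCM and LA was called for 20 of the 40, against 10.4% of all tested genes. Vegfd fell with LA (log2 FC -0.72, adjusted P = 0.00623) and Nts rose (log2 FC 1.09, adjusted P = 0.00314), both against their direction with TCM.

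In the insulin-like growth factor axis 8 of 18 genes were higher and 2 lower, with 5 higher without CCM library 2. The binding protein Igfbp2 stood at 3.04 and 3.54 CPM with CCM and 14.1 and 9.496 CPM with TCM (log2 FC 1.85 with an SE of 0.23, adjusted P = 0.00028). The receptor Igf1r (log2 FC 0.57, adjusted P = 0.00245), the adaptor Irs2 (log2 FC 1.05, adjusted P = 0.00138) and Igfbp7 (log2 FC 0.75, adjusted P = 0.00412) rose too. On the lower side Stc1, stanniocalcin 1, stood at 8.52 and 7.07 CPM with CCM and 1.58 and 0.764 CPM with TCM (log2 FC -2.72 with an SE of 0.34, adjusted P = 0.00027), and Igfbp4 fell too (log2 FC -0.83, adjusted P = 0.000945). Stc1 and Igfbp4, an inhibitor and a substrate of the pappalysin proteases, fell together. Coagulation and complement genes showed 12 of 21 higher and 4 lower with a median of 0.56, and without CCM library 1 the higher ones numbered 7. The first component proteases C1ra (log2 FC 0.96, adjusted P = 0.00021) and C1s1 (log2 FC 0.84, adjusted P = 0.000216) rose, and C4b, which C1s cleaves, stood at 2.02 and 1.91 CPM with CCM and 7.38 and 8.73 CPM with TCM (log2 FC 2.02 with an SE of 0.24, adjusted P = 0.000183).

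Markers of lineage choice did not move as 1 block. Of 10 adipogenic genes 4 were higher and 2 lower. The early factor Cebpd stood at 92.8 and 102 CPM with CCM and 317 and 235 CPM with TCM (log2 FC 1.51 with an SE of 0.15, adjusted P = 6.29e-05), and Pparg, Fabp4 and the preadipocyte protein Dlk1 (log2 FC 2.36, adjusted P = 0.00274) were higher as well. Ebf1, a factor of early adipocyte commitment, stood at 7.08 and 7.74 CPM with CCM and 1.897 and 2.401 CPM with TCM (log2 FC -1.78 with an SE of 0.32, adjusted P = 0.00259), and Cebpa fell too (log2 FC -1.36, adjusted P = 0.000361). Factors that act at neighboring steps of fat cell formation thus went opposite ways. Of 8 cartilage and bone markers 2 were higher and 2 lower. Sox9, the master factor of cartilage, fell (log2 FC -0.58, adjusted P = 0.00351), and Dmp1, a matrix phosphoprotein of osteocytes, had 18 and 19 counts with CCM and 1 and 1 with TCM (CCM over TCM ratio of counts scaled by depth 15.5, 95% exact interval 3.99 to 132, adjusted P = 0.0015). Of 18 FRC markers 5 were higher and 4 lower. The higher ones were Cxcl12, Grem1, Pdpn, the stem cell antigen Cd34 (log2 FC 0.74, adjusted P = 0.000321) and Ly6a, also a stem cell antigen, at 5.65 and 6.404 CPM with CCM and 12.5 and 14.8 CPM with TCM (log2 FC 1.18 with an SE of 0.20, adjusted P = 0.00167). The lower ones were Col3a1, the receptor Pdgfrb (log2 FC -0.47, adjusted P = 0.00926), the lysophosphatidic acid enzyme Enpp2 (log2 FC -1.83, adjusted P = 0.00662) and the membrane protease Fap. Fap had 34 and 13 counts with CCM and 2 and 2 with TCM (CCM over TCM ratio of counts scaled by depth 9.82, 95% exact interval 3.59 to 37.5, adjusted P = 0.0064). The calls of Pdgfrb, Enpp2 and Fap were each lost in some fit with a library left out, and without CCM library 1 the lower markers numbered 1. Pdpn had a log2 FC of 0.44 (adjusted P = 0.0108), and its call was lost without TMM factors (adjusted P = 0.0439, log2 FC 0.30) and without CCM library 1 (adjusted P = 0.0655, log2 FC 0.48) and without CCM library 2 (adjusted P = 0.101, log2 FC 0.41). Thy1 did not reach the count minimum and was not tested. Of 16 clock genes 2 were higher and 4 lower, with 2 lower without TCM library 1 and without CCM library 1. The core activator Arntl stood at 22.2 and 20.2 CPM with CCM and 9.59 and 9.17 CPM with TCM (log2 FC -1.18 with an SE of 0.13, adjusted P = 0.000137). Its target Nr1d1 fell (log2 FC -0.77, adjusted P = 0.00257) and the repressor Bhlhe41 rose (log2 FC 1.46, adjusted P = 0.000113). Heat shock proteins showed 2 of 26 higher and 0 lower, lysosome genes 6 of 46 higher and 2 lower with the protease cathepsin L (Ctsl) at 0.76 (adjusted P = 0.000639), and Hox genes, which record the position of origin of a fibroblast, 0 of 21 higher and 1 lower. Without TCM library 2 the heat shock and lysosome genes called higher numbered 6 and 13, and without either CCM library the lysosome genes numbered 2. Of 4 tested hematopoietic markers 0 were higher and 1 lower, Cd74, the invariant chain of MHC class II (log2 FC -2.06, adjusted P = 0.00021). Of 4 endothelial markers Egfl7 was called higher (log2 FC 1.28, adjusted P = 0.0156) and the receptor Tek lower (log2 FC -1.84, adjusted P = 0.0283). Both tested epithelial markers, Cdh1 (log2 FC -1.80, adjusted P = 0.00632) and Krt19 (log2 FC -1.26, adjusted P = 0.022), were called lower. The endothelial and epithelial calls were each lost in some fit with a library left out, and the 4 genes had at most 37 counts in a CCM or TCM library.

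Positions of 305 of 306 named genes were found in the GENCODE M21 annotation of GRCm38, and 146 of them overlap another annotated gene. Whether the counting used strand is not given in the sources used here, so reads of such a pair may have been counted for either gene. Examples are Htra1 (chr7:130936111-130985660, plus strand), which overlaps Fgfr2 on the opposite strand, and Npr3 (chr15:11839896-11907287, minus strand), which overlaps a predicted gene. Lrrc17 (chr5:21543559-21575904, plus strand) overlaps Fbxl13 on the opposite strand, while Grem1 (chr2:113746164-113758646, minus strand) and Pdpn (chr4:143267431-143299564, minus strand) overlap no other gene. Of the 2314 calls 962 (41.6%) were kept without each of the 4 libraries in turn, and 958 were kept in every alternative fit that tested the gene, 389 of them higher and 569 lower. The alternative fits counted here and for the lists and genes above were 11, all with the fold threshold unchanged. No gene was called in the opposite direction in any of these fits.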

How the data were processed

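RNA of 8 libraries, 2 for each of 4 conditions, was sequenced from directional poly(A) preparations. Per the submitters' processing notes the authors aligned the reads to GRCm38 with STAR 2.7.0a and counted them with featureCounts (Subread 2.0.1), and the deposited values are raw read counts per gene, in whole numbers. Another deposited table repeats them for the 12137 genes tested here. 0 columns were left unused. Libraries were grouped by their labels.

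In R 4.3.3, counts were scaled with TMM factors (0.938 to 1.04) and fitted with edgeR 4.0.16 (glmQLFit, glmQLFTest) with a mean per condition over all 8 libraries. Genes were called at a Benjamini-Hochberg adjusted P under 0.05 and a log2 FC beyond 0.39, the study's own fold threshold. SD and error are over 2 libraries (n = 2). At 3 counts, taken as the floor, a library holds 0.213 to 0.364 CPM of its total without TMM factors, and intervals and floors cover counting error only. A single gene tested by exact permutation over 2 libraries against 2 cannot go below P = 0.333. Same-numbered CCM and TCM libraries did not deviate together, so numbers were not taken as pairs. The TCM effect less the LA effect (LA against vehicle) was tested in the same fit. DESeq2 1.42.0, other scalings, filters, sample sets, thresholds and the loss of each library were tried as alternatives.

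The rule for named genes took the 12 genes of smallest adjusted P per direction beyond a 2-fold change, the 8 of largest change per direction with at least 5 CPM, up to 5 called genes per direction of each list, genes with at least 30 counts in 1 medium and at most 3 in the other, and transcripts measured by PCR in the study. Of these, genes called in all fits were preferred. The comparison, the lists and the rule were chosen with earlier results of these data known. The 3 uncalled mitosis genes and the 3 interferon genes called lower were named to complete a count. Promoter sequences and motifs came from RefSeq tables of GRCm38.p6 and lengths from GENCODE M21. Some genes that the rule names are not reported here.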

Additional observations from a re-analysis of the deposited data

How the results depend on the processing

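With TMM factors replaced by DESeq2 size factors 2326 genes were called, with the DESeq2 test 2004, without a filter 2696, with at least 10 counts in every library 2121, and with the CCM and TCM libraries alone 1731, against 2314. Of the calls without a filter 1340 were higher and 1356 lower. Scaling by total counts gave 2692 calls, 651 higher and 2041 lower, since it moves the median of all genes by -0.14. A log2 FC beyond 1 gave 760 genes (250 higher, 510 lower) and a test against 0.39 itself (glmTreat) 979 (395 and 584), both stricter by construction. Leaving out a library gave 1195 to 2864 calls, 520 to 1444 higher and 675 to 1420 lower, lowest without CCM library 1, which left 7 libraries in the fit and assumed that the lone CCM library varies like the others. Without CCM library 2 the calls were 1284, 527 higher and 757 lower, without TCM library 2 they were 2864, and the cause was not tested. Of 3324 values of named genes under alternatives 3032 kept direction and call, 292 lost the call and 0 reversed. The medians of 24 of 53 lists changed sign in some alternative.

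A fit with a replicate block called 2367 genes, 1093 higher and 1274 lower. The correlation of same-numbered CCM and TCM libraries was -0.242, that of vehicle and LA libraries 0.353, and those of the other pairs of conditions -0.0813 to 0.112. The numbers thus gave no sign of pairing for TCM against CCM, and with the CCM numbers crossed, a choice made after seeing the data, the block gave 2675 calls, 1266 higher and 1409 lower.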

Other observations

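Counts of 2 melanocyte genes appeared in both TCM libraries and in none of the 6 others. Sox10 and Slc45a2 had 0 and 1 counts each with TCM and 0 in each of the others. Tyrp1, an enzyme of melanin synthesis, had 6 and 3 counts with TCM and 0 in each of the CCM, LA and vehicle libraries. Dct, which acts at a neighboring step, had 1 and 1 counts with TCM and 0 in each of the others. None of these genes reached the count minimum, and all were singled out after their values were seen.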
